A study of Caenorhabditis elegans with 2 samples.

Results

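The members are 329 of the 1925 peaks (17.1%) of the homeodomain protein MLS-2 in Caenorhabditis elegans embryos, namely those on chromosomes I to V that lie between genes and away from promoters. A peak was a member when its summit was off the X chromosome, more than 200 bp from any tRNA, snoRNA, snRNA or miRNA gene, outside every protein-coding gene body and outside every promoter window. A promoter window covered 1000 bp before and 100 bp after each 5′ end of a transcript of a protein-coding gene. The sequence that meets these conditions, called eligible below, amounts to 19.3 Mb on the autosomes. Coordinates are in ce11 (WBcel235) and 1-based.

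The peaks come from chromatin immunoprecipitation sequencing (ChIP-seq) with an anti-GFP antibody on strain OP645, genotype unc-119(tm4063) III; wgIs645. Its integrated transgene makes MLS-2 fused at the C terminus to GFP-FLAG, and the genotype names no lesion of the worm's own mls-2 gene. There was 1 group, mixed-stage embryos of mixed sex taken 2 h after egg bleaching, with 2 biological replicates and sonicated chromatin. No untagged strain and no control library was analysed here, and read totals are unknown. The chromatin was pooled from whole embryos of 1 transgenic line, so binding in fewer cells and weaker binding in each cell cannot be told apart. Signal below is the authors' own peak score, whose scaling is not given in the sources used here. It was compared within a list only.

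MLS-2 belongs to the HMX/NKX5 family of homeodomain transcription factors and acts in the postembryonic mesoderm, in glia and in some sensory neurons of the worm. Homeodomains bind short sequences around a TAAT core. In the compact worm genome most regulatory sequence lies close to the 5′ ends of genes, and sequence farther out can hold enhancers, noncoding RNA genes and repeats.

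The sequences at 13 summits are shown because the results on base content and motifs turn on them. They come from chromosomes II to V. The first 6 are the strongest members there, the next 4 hold CAATTAA, a motif of the HMX family, and the last 3 lie farthest from any 5′ end. Each is the plus strand of the RefSeq WBcel235 genome from 50 bp before to 50 bp after the summit, named by the gene with the nearest protein-coding 5′ end. Capitals mark the motif GAGAGA, the string CTGCGTCTC and the motifs GGGCGG with CAATTAA and also TAATTA, on either strand.
fbxa-55 III:931557-931657: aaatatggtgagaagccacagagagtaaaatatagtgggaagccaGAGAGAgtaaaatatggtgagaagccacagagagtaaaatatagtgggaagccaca
F54F12.1 III:13062596-13062696: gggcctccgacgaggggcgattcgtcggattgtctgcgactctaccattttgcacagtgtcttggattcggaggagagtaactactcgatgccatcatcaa
sup-26 III:4282269-4282369: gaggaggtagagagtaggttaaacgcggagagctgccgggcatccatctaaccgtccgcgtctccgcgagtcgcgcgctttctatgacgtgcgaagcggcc
D2096.7 IV:8375542-8375642: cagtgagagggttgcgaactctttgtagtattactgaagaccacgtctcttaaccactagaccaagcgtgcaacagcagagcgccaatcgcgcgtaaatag
Y39E4B.6 III:13068471-13068571: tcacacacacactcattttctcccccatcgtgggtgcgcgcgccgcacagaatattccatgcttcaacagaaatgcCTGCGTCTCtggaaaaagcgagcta
cmd-1 V:1151448-1151548: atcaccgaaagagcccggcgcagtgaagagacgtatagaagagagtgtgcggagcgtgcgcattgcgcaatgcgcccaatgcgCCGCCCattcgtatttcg
ceh-58 II:10373889-10373989: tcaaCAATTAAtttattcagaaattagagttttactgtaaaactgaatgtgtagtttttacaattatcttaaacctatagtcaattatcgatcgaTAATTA
F58H1.6 V:11947306-11947406: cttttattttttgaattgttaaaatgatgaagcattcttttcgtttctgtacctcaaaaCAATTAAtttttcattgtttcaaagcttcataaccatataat
ceh-43 III:4452881-4452981: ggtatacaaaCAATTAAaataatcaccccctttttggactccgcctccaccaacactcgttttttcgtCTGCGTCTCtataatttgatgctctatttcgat
Y43F8C.5 V:19630863-19630963: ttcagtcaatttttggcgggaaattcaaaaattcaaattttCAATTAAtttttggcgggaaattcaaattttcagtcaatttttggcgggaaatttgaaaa
Y37A1B.7 IV:14032761-14032861: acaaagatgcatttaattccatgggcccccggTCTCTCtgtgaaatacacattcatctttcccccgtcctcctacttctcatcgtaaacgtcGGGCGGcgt
ari-2 IV:5561629-5561729: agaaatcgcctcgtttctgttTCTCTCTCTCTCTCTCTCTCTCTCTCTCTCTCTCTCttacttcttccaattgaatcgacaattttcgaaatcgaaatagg
aakg-1 III:12584517-12584617: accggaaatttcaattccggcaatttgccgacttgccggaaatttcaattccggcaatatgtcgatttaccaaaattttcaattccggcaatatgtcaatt

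Of the 6 strongest shown, 3 hold no capitals, and the windows at fbxa-55, Y39E4B.6 and cmd-1 hold 1 match each. G and C made up 62.4% of the bases at sup-26, the highest of the 6, and 40.6% at fbxa-55, the lowest. The fbxa-55 summit lay in a short unit that repeats along the whole window, and the ari-2 summit held an unbroken run of 37 alternating bases, made of the GAGAGA motif read on the other strand. The Y43F8C.5 and aakg-1 summits also lay in repeats, and all bases of both windows are in the lower case that marks repeats in the RefSeq sequence.

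Distal intergenic peaks were spread over all 5 autosomes but thinly on chromosomes IV and V. Chromosomes I, II, III, IV and V held 72, 74, 68, 59 and 56 members. Per Mb of eligible sequence that was 25.7 on I (95% exact Poisson interval 20.1 to 32.4), 20.8 on II (16.3 to 26.1) and 24.4 on III (19 to 31). Chromosome IV had 11.8 per Mb (9 to 15.3) and chromosome V 10.9 (8.21 to 14.1), so their intervals lie below those of the other 3. With each chromosome cut into 3 equal parts, the lowest densities were in the right part of V with 6.60 per Mb, the right part of IV with 6.79 and the left part of II with 9.35. The highest was in the middle part of II, with 31.4. The same rule applied to X gave 133 peaks. The autosomes had 17.1 distal intergenic peaks per Mb and X had 23.6, a ratio of 0.723 (95% interval 0.589 to 0.891, exact conditional binomial test, two-sided, p = 0.00217). That test pools the 5 autosomes into 1 rate. X lay within the range of the single autosomes, below I and III and above II, IV and V. Intervals here and below cover counting error only and treat peaks as independent, and each p describes the peak lists, not animals.

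Members were sparse between convergent genes, and more of them lay upstream of the nearest 5′ end than the share of such sequence. Those between 2 convergent genes, whose 3′ ends face each other, numbered 23, which is 6.99% of the members (95% exact binomial interval 4.48 to 10.3), while such gaps make up 17.5% of the eligible sequence. Divergent gaps held 109 members (33.1%) and 28.8% of the eligible sequence, and tandem gaps held 197 members (59.9%) and 53.5% of it. The summit lay on the upstream side of the nearest 5′ end for 252 members (76.6%, interval 71.6 to 81.1), against 63.6% of the eligible sequence. The distance to that 5′ end ran from 567 bp to 15081 bp, with a median of 2373 bp. Density was 9.05 per Mb (2.94 to 21.1, 5 members) within 1 kb of that 5′ end, 21.3 (17.8 to 25.3) at 1 to 2 kb, 19.3 at 2 to 3 kb, 16.6 at 3 to 5 kb, 10.2 (6.96 to 14.4) at 5 to 10 kb and 5.70 (1.55 to 14.6) farther out. By distance to the nearest 3′ end it was 12.9 per Mb (7.97 to 19.7) within 250 bp, 19.1 (12.1 to 28.7) at 250 to 500 bp, 15.4 at 500 to 1000 bp, 13.5 (9.54 to 18.7) at 1 to 2 kb, 18.5 at 2 to 5 kb and 18.4 farther out, with no steady trend. The median member lay in a gap of 6911 bp. These shares were set beside the sequence and not tested.

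**Figure D1:**
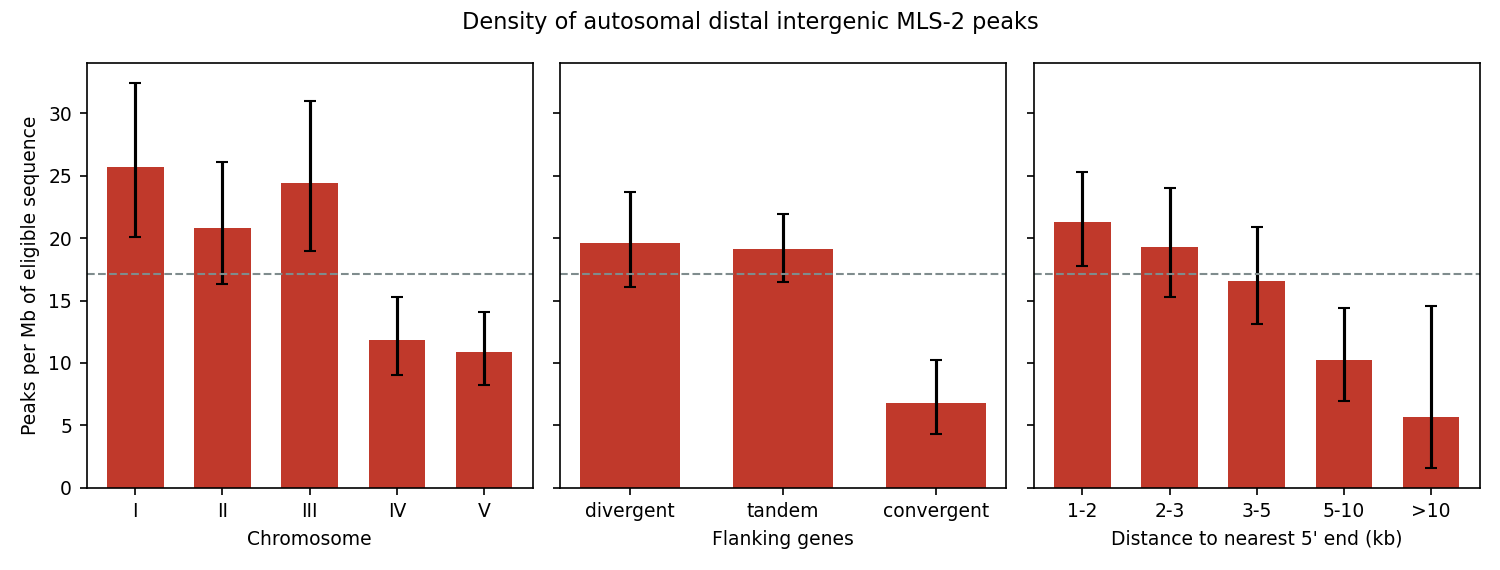
Density of autosomal distal intergenic peaks per Mb of eligible sequence by chromosome, by orientation of the flanking genes and by distance to the nearest protein-coding 5′ end. Bars are densities with 95% exact Poisson intervals and the dashed line is the autosomal mean of 17.1. Below the line lie chromosomes IV and V, convergent gaps, and distances from 3 to 5 kb and of more than 5 kb. Distances under 1 kb are not drawn.

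Annotated noncoding RNA genes were frequent at the summits and pseudogenes were rare. A gene that Ensembl classes as ncRNA, a group apart from the small RNA genes the rule removed, covered 48 summits (14.6%, interval 11 to 18.9), against 1.35% of the eligible sequence. These members lay on 59 ncRNA genes, some of which overlap, with a median length of 177 bp. The 1574 such genes with eligible sequence had a median length of 143 bp. Long intergenic noncoding RNA genes covered 6 summits (1.82%, against 0.788% of the sequence). Pseudogenes covered 3 summits (0.912%, interval 0.188 to 2.64), against 12.2% of the sequence. No summit lay in a piRNA gene, where the interval reaches 1.11% and the sequence share is 0.664%. In all, 55 summits lay in an annotated noncoding RNA gene or pseudogene (16.7%, interval 12.8 to 21.2), close to the 15% of the eligible sequence that such genes cover. GAGAGA, described below, lay at 22 of these 55 (40%) and at 105 of the other 274 members (38.3%), a pair of shares that was not tested.

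Most members were modest peaks. Their signal in the pooled list had a median of 272.9 and ran from 212.2 to 1330, and 286 of the 329 had the common width of 470 bp. Of the members, 135 (41.0%) had a signal above the median of all 1925 peaks, against 322 of 632 autosomal promoter peaks (50.9%). That is a difference of -9.92 percentage points (95% interval -16.4 to -3.27, Fisher's exact test, two-sided, adjusted p = 0.00844 over 2 comparisons). The call was lost in the list of replicate 2 alone (-6.93 points, exact adjusted p = 0.0909), with a 2000 bp promoter window (-5.94) and without summits in noncoding genes or pseudogenes (-8.17). Against intron peaks, with 95 of 243 above the median (39.1%), the difference was 1.94 points (-6.19 to 9.94, Fisher's exact adjusted p = 0.667).

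More members were found in each replicate by itself than were missed in one of them. A peak counted as found when a summit lay within 100 bp among the 1925 strongest regions of that replicate's own list. Replicate 1 held 282 members (85.7%), replicate 2 held 216 (65.7%), both held 186 (56.5%, interval 51 to 62) and neither held 17. Of promoter peaks, 416 of 632 (65.8%) were found in both, so that distal intergenic peaks were lower (difference -9.29 points, interval -15.8 to -2.82, Fisher's exact test, adjusted p = 0.00998). In replicate 2, 65.7% of members and 75.3% of promoter peaks were found (Fisher's exact adjusted p = 0.00377). In replicate 1 the shares were 85.7% of members and 87.3% of promoter peaks (Fisher's exact adjusted p = 0.484). The call on both replicates was lost with all 30000 regions of each counted (-2.86 points, exact adjusted p = 0.143), with summits within 250 bp (-5.69), any overlap (-6.01), a 2000 bp promoter window (-6.72) or the peaks above the median signal only (-4.28). Against intron peaks, 52.3% of which were found in both, the difference was 4.27 points (-3.95 to 12.4, exact adjusted p = 0.35). Against X distal intergenic peaks, of which 61.7% were, it was -5.12 points (-14.6 to 4.86, Fisher's exact p = 0.349).

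Recovery followed signal closely. Both replicates held 90% of the 110 strongest members, 62.7% of the next 110 and 16.5% of the 109 weakest. This is a description, since the pooled signal is made from the same replicates. Across 305 members with a region in both replicates, the signals had a Spearman rho of 0.44, and across 604 promoter peaks the rho was 0.67. It was 0.49 across 220 intron peaks and 0.57 across 125 X distal intergenic peaks. The points share 2 libraries and a list chosen on their pool.

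**Figure D2:**
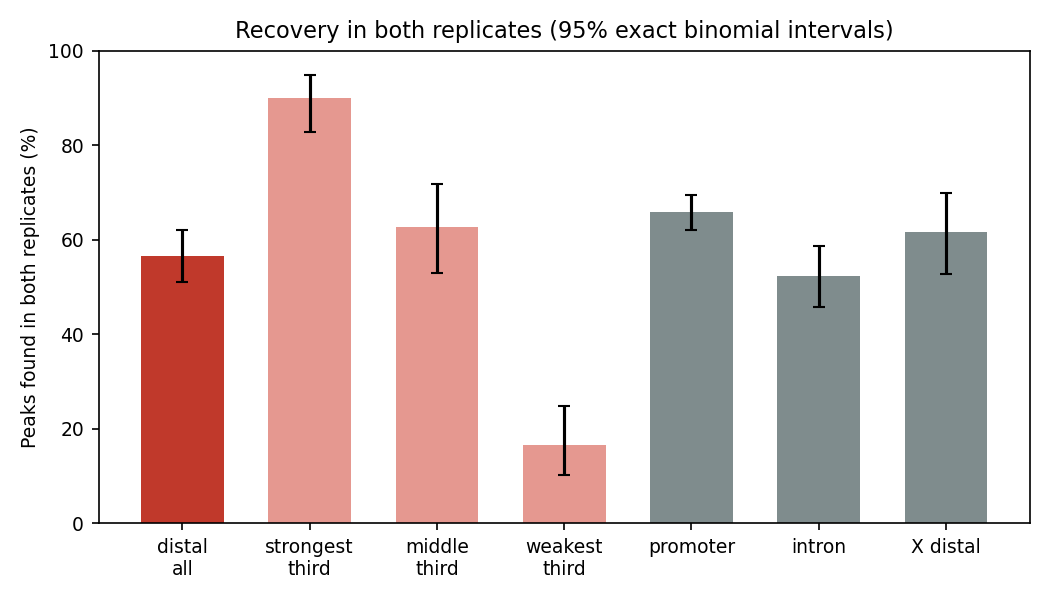
Percentage of peaks found in both replicates, for all 329 distal intergenic members, for the same members in 3 groups by signal and for autosomal promoter, autosomal intron and X distal intergenic peaks. Error bars are 95% exact binomial intervals. The strongest group reaches 90% and the weakest group 16.5%.

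**Figure D3:**
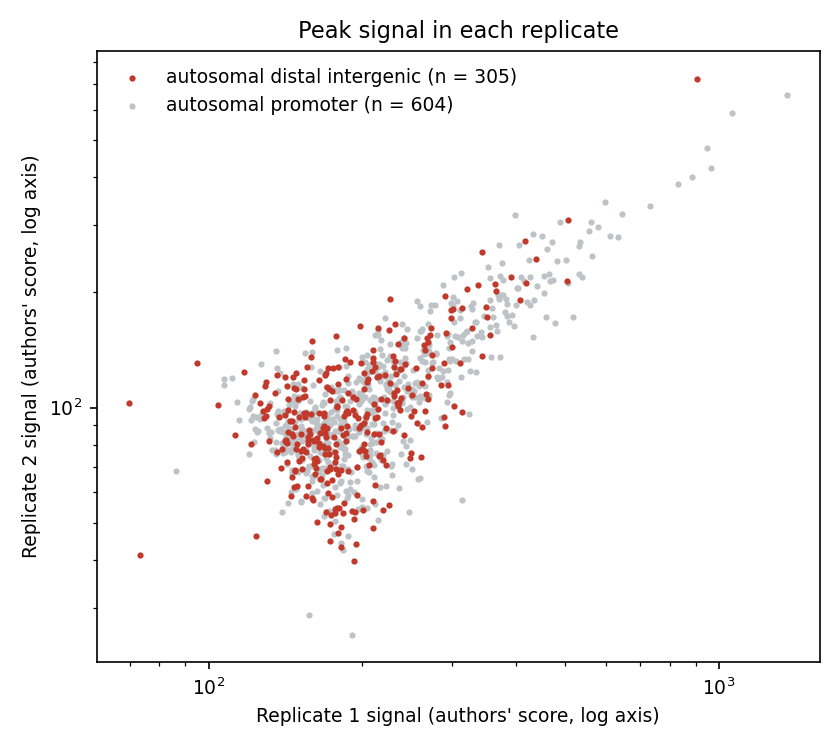
Signal in replicate 1 (x axis) and replicate 2 (y axis), both log axes in the authors' score, for 305 distal intergenic peaks and 604 promoter peaks with a region in both. Most distal intergenic peaks sit in the low cloud where the replicates scatter, and 1 point, near nas-30, stands apart at 903.8 and 724.1.

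The strongest member stood apart from all the others. It lay on chromosome I with its summit at base 933518, 4965 bp upstream of nas-30, a gene for an astacin-type protease. Its signal was 1330 in the pooled list, 903.8 in replicate 1 and 724.1 in replicate 2, ranks 17, 17 and 4 of all regions. The next member, near the F-box gene fbxa-55, had 748.2, with 506.5 in replicate 1 and 309.7 in replicate 2. Both summits lay in repeats by the RefSeq marking, with 92.1% and 91.1% of their bases in lower case, and both held GAGAGA. Reads from repeated sequence cannot always be placed, and how the authors treated them is not given in the sources used here.

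The other 13 of the 15 strongest members had little lower-case sequence, at most 19.8% of bases. The summit in the gap between F54F12.1 and Y39E4B.6 on chromosome III had a signal of 711.9, with 504.0 in replicate 1 and 214.2 in replicate 2. The summit 2095 bp upstream of sup-26, which encodes an RNA-binding protein, had 689.6, with 437.5 in replicate 1 and 244.9 in replicate 2. The summit between the convergent genes aagr-1 and D2096.7 had 688.2, with 417.1 in replicate 1 and 272.8 in replicate 2. That gap is 350 bp long. A second summit between F54F12.1 and Y39E4B.6 had 631.0, with 418.8 and 211.8 in replicates 1 and 2.

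Further members of the 15 strongest lay beside these genes. The summit between C26C6.9 and goa-1, which encodes a Go alpha subunit, had 614.2 and lay 267 bp from the small RNA gene C26C6.13, just outside the limit of the rule. The summit 4773 bp upstream of cmd-1, the calmodulin gene, had 592.9 and lay in linc-128. The summit 3219 bp upstream of tcl-2, a gene of asymmetric cell division, had 581.3, and that 1192 bp upstream of mau-2, a cohesin loader gene, had 571.7. The one 1146 bp upstream of casc-3 had 566.7. Between the CDK inhibitor genes cki-1 and cki-2, 2052 bp upstream of cki-2, a summit had 529.9, with 348.9 in replicate 1 and 182.9 in replicate 2. The summit downstream of the 5′ end of ntl-9 and before flh-2 had 519.0, and the one 1660 bp upstream of unc-70, the beta-spectrin gene, had 514.6, with 351.1 in replicate 1 and 172.2 in replicate 2. All 15 were found in both replicates.

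The summits were richer in G and C than the sequence around them. G and C made up 48.3% ± 8.23 of the bases within 50 bp of the summit and 33.7% ± 7.67 of a flank of the same length centred 350 bp away (SD, n = 329 members). The summit was the richer window in 301 of 329 members (91.5%, interval 87.9 to 94.3, exact sign test, two-sided, p = 6.1e-59). The share was 84.1% among promoter peaks, a difference of 7.38 points (2.97 to 11.4, Fisher's exact adjusted p = 0.00129), and 81.1% among intron peaks, a difference of 10.4 points (4.71 to 16.4, Fisher's exact adjusted p = 6.8e-04). Neither difference passed in the list of 1 replicate: against promoters it was 4.67 points from replicate 1 and 3.94 from replicate 2 (Fisher's exact adjusted p = 0.0713 and 0.105), and against introns 4.75 and 6.35 (0.0983 and 0.0753). With the flank on the opposite side they were 3.39 points against promoters and 4.4 against introns (Fisher's exact adjusted p = 0.15 each), and within 25 bp of the summit the difference from promoters was 2.63 points (exact adjusted p = 0.322). X distal intergenic peaks had a share of 94.7%, a difference of -3.25 points (-7.67 to 2.55, Fisher's exact p = 0.331). The 110 strongest members had 50.7% G and C on average, and the 109 weakest 46%.

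The rise in G and C was broader at distal intergenic summits than at promoter summits. At 100 bp on the higher-coordinate side the mean was 45.5% in distal intergenic peaks, 37.5% in promoter peaks and 46.4% in intron peaks, and on the lower-coordinate side it was 45.3%, 38.7% and 45.9%. At 500 bp the distal intergenic mean was 33.3% and 33.4% on the 2 sides, and the promoter mean 36.8% and 37.2%. The profile's width was described and not tested.

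**Figure D4:**
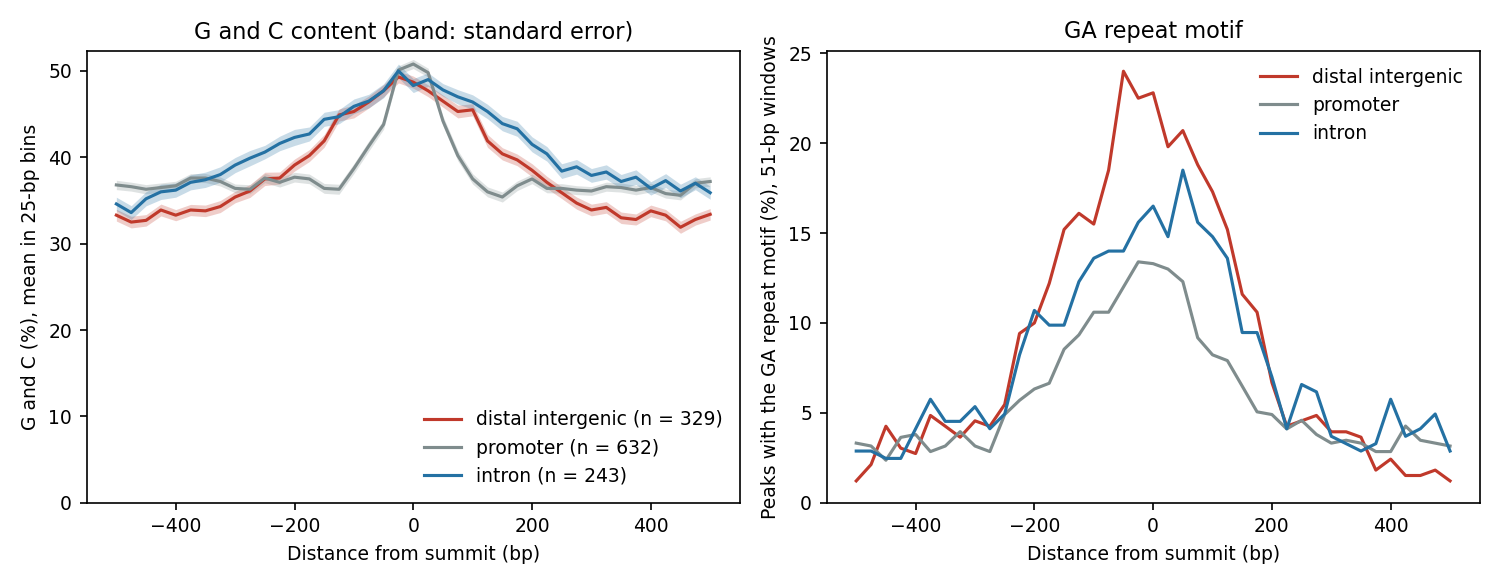
Mean G and C content in 25-bp bins with its standard error (left) and percentage of peaks with the GA repeat motif in 51-bp windows (right) by distance from the summit, for 329 distal intergenic, 632 promoter and 243 intron peaks. Distal intergenic peaks are highest for the motif, with 22.8% at the summit against 13.3% in promoter and 16.5% in intron peaks, and all 3 groups fall to similar low levels beyond 300 bp.

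GAGAGA was the leading motif. It was 1 of 9 motifs in a panel taken from earlier results on these peaks, each sought on either strand in the summit window and in the flank. AGAGAG, which overlaps it, is not in the panel. GAGAGA, a repeat that GAGA factor binds in Drosophila, lay at 127 summits (38.6%, interval 33.3 to 44.1) against 27 flanks (8.21%), so the ratio was 4.70 (exact McNemar test, adjusted p = 6.0e-19 over 9 motifs). Of 190991 windows of the same length tiled over the eligible sequence, 5.56% held it. Promoter peaks had it at 149 of 632 summits (23.6%), so that members were higher by 15 points (8.86 to 21.2, Fisher's exact test, adjusted p = 2.6e-05 over 18 comparisons). Intron peaks had it at 28.0% of summits, a difference of 10.6 points (2.78 to 18.1, Fisher's exact adjusted p = 0.0345), which was 8.72 points and 7.68 points in the lists of replicate 1 and replicate 2 alone (exact adjusted p = 0.0979 and 0.187). That call was also lost with promoter windows of 500 and 2000 bp, above the median signal and within 25 bp of the summit (exact adjusted p from 0.0917 to 0.276).

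The GAGAGA share varied among the members. By chromosome it was 48.6% on I, 25.7% on II, 44.1% on III, 50.8% on IV and 23.2% on V, with 95% exact binomial intervals of 36.7 to 60.7, 16.2 to 37.2, 32.1 to 56.7, 37.5 to 64.1 and 13 to 36.4. Between convergent genes only 3 of 23 summits had it (13%, 2.78 to 33.6), against 37.6% of divergent and 42.1% of tandem members. By distance from the 5′ end, none of the 5 members within 1 kb had it (interval 0 to 52.2), and the share was 39.4% at 1 to 2 kb, 38.3% at 2 to 3 kb, 37.3% at 3 to 5 kb and 37.5% at 5 to 10 kb. All 4 members beyond 10 kb had it (interval 39.8 to 100). Runs of strictly alternating G and A on 1 strand reached 10 bases or more in 29 members and 20 or more in 5. The longest were at affl-2 with 53 bases, dyb-1 with 41 and ari-2 with 37.

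GGGCGG, the GC box bound by SP and KLF zinc-finger proteins, lay at 33 summits (10%) against 6 flanks (1.82%), 5.50 times as many (exact McNemar adjusted p = 4.6e-05). Replicate 1's own list gave a ratio of 3.11 and the opposite flank one of 16.5, and the ratio lost its call with a 2000 bp promoter window (3, exact McNemar adjusted p = 0.068). Its share of eligible windows was 1.69%, and its share of promoter summits was 12.5%. TGATAA, which holds the core of GATA-factor sites, went the other way, with 3 summits (0.912%) against 26 flanks (7.90%), or 0.115 times as many (exact McNemar adjusted p = 4.6e-05), and 9.06% of eligible windows. Replicate 2's own list gave a ratio of 0.176 (exact McNemar adjusted p = 1.9e-05). Those 3 members, named after their values were seen, lay nearest nas-30, Y37E3.30 and hsp-16.48, a small heat shock protein gene. High G and C at the summits moves with all of these counts, and its part in them was not tested.

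Neither TAATTA nor CAATTAA passed the test of summits against flanks. TAATTA lay at 25 summits (7.60%) against 19 flanks (5.78%), or 1.32 times as many (exact McNemar adjusted p = 0.773), with 5.06% of eligible windows. It was more frequent at members than at promoter summits, where 13 of 632 had it (2.06%), a difference of 5.54 points (2.75 to 9.03, Fisher's exact adjusted p = 6.3e-04), but the difference was 3.11 points in the list of replicate 1 and 3.53 in that of replicate 2 (exact adjusted p = 0.0664 and 0.0696). It was 4.44 points with a 2000 bp promoter window and 1.63 within 25 bp of the summit (exact adjusted p = 0.0591 and 0.218). At promoter peaks TAATTA was less frequent at summits than in their flanks, 33 of which held it (5.22%, exact McNemar adjusted p = 0.00765). CAATTAA lay at 8 summits and in 8 flanks (2.43% each, exact McNemar adjusted p = 1), and 2.88% of eligible windows held it. Replicate 1's own list gave a summit-to-flank ratio of 0.357, that of replicate 2 gave 0.636, and the ratio was 3 with a 2000 bp promoter window, none of which passed (exact McNemar adjusted p from 0.143 to 0.618). CAAGTG, an NKX-type site, lay at 11 summits (3.34%) and was less frequent than at promoter summits, 9.49% of which had it (difference -6.15 points, interval -9.08 to -2.89, Fisher's exact adjusted p = 0.00231), with -4.15 points in the list of replicate 2 (exact adjusted p = 0.122). The call was also lost with a 2000 bp promoter window, above the median signal and within 25 bp of the summit (exact adjusted p from 0.0551 to 0.0585). Member flanks held CAAGTG 12 times (3.65%). Promoter peaks had it at 60 summits and in 18 flanks (2.85%, exact McNemar adjusted p = 3.1e-06). CACCTG, an E-box, lay at 18 member summits (5.47%) against 1.42% of promoter summits, a difference of 4.05 points (1.70 to 7.13, Fisher's exact adjusted p = 0.00293). With a 2000 bp promoter window it was 2.04 points (exact adjusted p = 0.527). In member flanks it lay 8 times (2.43%), and the test of summits against flanks was not passed (exact McNemar adjusted p = 0.144). The E-boxes CAGCTG and CACGTG lay at 11 and 7 summits. Of all members, 136 (41.3%) had none of the 9 motifs, 40 had 2 and 5 had 3.

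The 8 members with CAATTAA were weak peaks for the most part. Their signals ran from 216.2 to 332.3, the highest near T28B8.1 on chromosome I, with 198.3 in replicate 1 and 130.9 in replicate 2. Homeobox genes were nearest to 2 of them. The ceh-58 summit had 278.9, with 168.9 in replicate 1 and 75.5 in replicate 2, and the summit 2988 bp upstream of ceh-43, the worm's Distal-less gene, had 250.8, with 169.0 in replicate 1 and 85.8 in replicate 2. Another lay 1564 bp upstream of egl-9, which encodes the prolyl hydroxylase of the hypoxia pathway, with 219.0. Those near F58H1.6 and C50D2.2 had 264.9 and 216.2, and 2 adjacent ones near Y43F8C.5, with 239.7 and 220.0, lay in the same repeat. Both replicates held 4 of the 8. The ceh-58 and egl-9 summits with CAATTAA each lay within 250 bp of a stronger member, with 435.2 and 417.8. With summits that close to a stronger one left out, the CAATTAA ratio of summits to flanks was 0.625 (exact McNemar adjusted p = 0.809).

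A search of all words of 6 bases, each counted with its reverse complement, gave 211 words more frequent at member summits than in flanks (10.1% of the words) and 182 less frequent (8.75%), by exact McNemar test at an adjusted p below 0.05. Of the 64 words of G and A alone on 1 strand, 35 were higher and 4 lower, and of the 36 words of G and C alone, 21 were higher and none lower. No word of A and T alone was higher and 29 of 36 were lower. GAGAGA had the lowest p among the higher words, followed by AGAGAG at 105 summits and 19 flanks and AGAGAC at 81 and 13, words that overlap it. CCTCCC lay at 43 summits and in 1 flank, CTCTCC at 67 and 12, CGTCTC at 64 and 9, ACCCCC at 40 and 3, and ACGCAG at 51 and 7 (exact McNemar adjusted p from 5.6e-10 for CCTCCC to 7.1e-08 for ACGCAG). The lowest p among the lower words were those of AAAAAT, at 38 summits and in 175 flanks, AAAATT at 36 and 160, AAAAAA at 46 and 161 and AAATTT at 22 and 102. At promoter peaks, 136 of the 211 and 142 of the 182 were called the same way. Of all words, 354 were higher at promoter summits than in their flanks (17%) and 317 lower (15.2%). At intron peaks, 52 words were higher (2.5%) and 66 lower (3.17%). The classes hold 329, 632 and 243 peaks, and how many words pass depends on that number. These counts therefore do not rank the classes, and the overlap between classes was not tested.

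The word ACGCAG, read on the other strand, overlaps with the word CGTCTC in the longer string CTGCGTCTC, which was put together after the words were seen and was not tested. It lay at 34 member summits (10.3%) and in 4 flanks (1.22%), and in 0.515% of eligible windows. Promoter peaks had it at 57 summits (9.02%), intron peaks at 13 (5.35%) and X distal intergenic peaks at 7 (5.26%). Among the printed sequences it stands in those of Y39E4B.6 and ceh-43.

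Gaps between genes were shared by 108 members (32.8%), a share that has no background beside it and was not tested. The 329 members lay in 265 gaps, of which 221 held 1 member, 32 held 2 and 12 held 3 or more. The largest group was in the 15313 bp between the divergent genes F54F12.1 and Y39E4B.6 on chromosome III, with 6 members spanning 7092 bp. Their signals were 711.9, 631.0, 407.5, 370.7, 275.0 and 232.8, and the first 4 were found in both replicates. The weakest lay 206 bp from the strongest and shared its start, with 69.9 in replicate 1 and 102.5 in replicate 2. Upstream of tcl-2 there were 4 members, with 581.3, 262.9, 233.9 and 229.5, of which the first 2 were found in both replicates.

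Other gaps held 4 members each. Between ceh-58, a homeobox gene, and ztf-27, a zinc finger gene, the signals were 435.2, 305.2, 278.9 and 258.1, and all but the third were found in both replicates. The 3 nearest ceh-58 each held TAATTA, and the third also held CAATTAA. Between snt-1, the synaptotagmin gene, and egl-27, which encodes an MTA-type chromatin protein, the signals were 357.7, 259.6, 248.9 and 235.7, at 1124 bp to 9004 bp upstream of egl-27. Between sqv-6, a xylosyltransferase gene, and Y50D4C.12 they were 344.2, 263.7, 242.8 and 230.1. A further gap with 4 members lay between rho-1, the RhoA gene, and zip-7, with signals of 272.9 to 294.0. Members within 250 bp of another optimal summit numbered 25 (7.60%), again with no background beside the share.

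**Figure D5:**
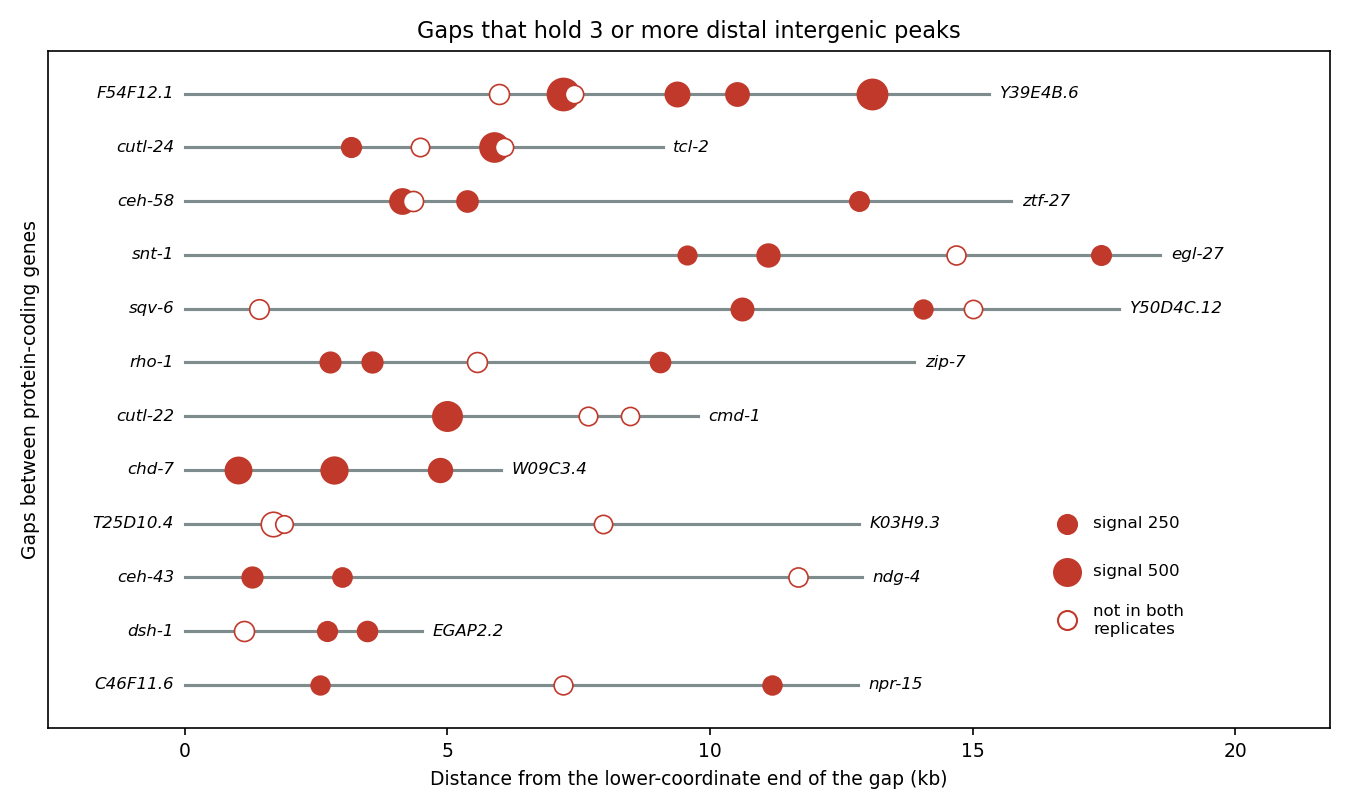
Positions of the members in the 12 gaps between protein-coding genes that hold 3 or more, in kb from the lower-coordinate end of each gap, with the flanking genes named at the ends. Circle area follows the signal, and open circles were not found in both replicates. The gap between F54F12.1 and Y39E4B.6 holds 6 members over 7092 bp.

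Of the 5 members farthest from a 5′ end, the first, on chromosome I, was 15081 bp from the 5′ end of T06A4.1 in a gap of 26998 bp before zfh-2, a zinc finger homeobox gene, with a signal of 422.6, or 268.6 in replicate 1 and 148.3 in replicate 2. The second, 10969 bp from Y37A1B.7, lay in the ncRNA gene Y37A1B.332 and 1197 bp from mir-52, with 547.8, or 337.5 and 208.7 in replicates 1 and 2. The third was nearest to ari-2, an Ariadne-type ubiquitin ligase gene, at 10545 bp, and lay 346 bp from mir-228, with 247.5, or 169.7 and 83.8 in replicates 1 and 2. The fourth lay before kpc-1, a proprotein convertase gene, with 255.3, and the fifth 9166 bp upstream of aakg-1, an AMP-activated kinase subunit gene, with 215.2. The first 4 were found in both replicates and held GAGAGA. Across all members, signal had a Spearman rho of 0.02 with distance to the 5′ end, 0.06 with the length of the gap and 0.23 with G and C content (n = 329 each, a description).

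The gene with the nearest 5′ end was taken as a label for each member, which does not show that it is regulated. In all, 284 of 17242 autosomal protein-coding genes were nearest to a member (1.65%), 35 of them to 2 or more. Of the 284, 28 (9.86%) also had a summit in their own promoter window, against 5.27% of all autosomal genes. Genes with long upstream gaps are nearest to more sequence, so the share of eligible sequence nearest to a list is given beside each list's share of members. The 15 lists were drawn up with earlier results of these peaks known and were not tested.

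Transcription factor genes were among them. Of 69 autosomal homeobox genes, 4 were nearest to a member (5.80%, exact binomial interval 1.60 to 14.2): ceh-58, ceh-43, the Hox gene ceh-13 and the Meis-type gene unc-62, with 7 members (2.13%, against 1.08% of the eligible sequence). These members include a pair at ceh-58 whose summits lay within 250 bp of each other. The unc-62 summit had 256.7, with 177.0 in replicate 1 and 72.2 in replicate 2, and the ceh-13 summit 219.0, with 94.7 and 131.0, and neither was found in both. Of 30 basic helix-loop-helix genes, 2 were nearest, hlh-2, the E-protein gene, with 420.2 (294.6 in replicate 1 and 114.3 in replicate 2), and mml-1, with 238.7 (0.608% of the members against 0.507% of the eligible sequence). The GATA factor gene egl-18 was the only one on a list of 35 GATA, T-box, forkhead and SOX genes, with 2 members at 340.2 and 321.9, both holding GA runs (0.608% of the members against 0.493% of the sequence). Of 247 nuclear receptor genes 3 were nearest (1.21%), nhr-41 with 332.6, nhr-88 with 330.4 and nhr-64 with 227.7 (0.912% of the members against 1.92% of the sequence).

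Signalling and neuronal genes followed. Of 48 genes of the Wnt, Notch, EGF, FGF and TGF-beta pathways, 5 were nearest (10.4%, interval 3.47 to 22.7), with 1.52% of the members against 0.44% of the eligible sequence. They were pop-1, the TCF gene of Wnt signalling, with 379.9 (231.3 in replicate 1 and 164.9 in replicate 2), daf-4, a TGF-beta receptor gene, with 332.4 (249.2 and 94.9), let-60, the Ras gene, with 323.5 (248.3 and 73.6), dsh-1, a Dishevelled gene, with 276.5, and cam-1, a ROR-type receptor kinase gene, with 213.6. The gap beside dsh-1 held 3 members, and let-60 was the only one of 9 autosomal genes tied to mls-2 in genetic work (0.304% of the members against 0.0803% of the sequence). The let-60 summit was not found in both replicates, since its region in replicate 2 ranked 2348, outside the 1925 strongest. Of 41 axon guidance and adhesion genes, 5 were nearest (12.2%, interval 4.08 to 26.2), with 1.52% of the members against 0.666% of the sequence: the semaphorin gene smp-1 with 330.2 and the plexin gene plx-1 with 291.1, a ligand and its receptor, lad-2 with 291.1, unc-44, the ankyrin gene, with 260.1, and the ephrin gene vab-2 with 219.3. Of 29 synaptic genes, 3 were nearest (10.3%, interval 2.19 to 27.4), with 0.912% of the members against 0.369% of the sequence: unc-31 with 314.2, the syntaxin gene unc-64 with 286.0 and the endophilin gene unc-57 with 283.9.

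The remaining lists each had 3 nearest genes or fewer. Of 1266 autosomal chemoreceptor genes 1 was nearest, sre-47 (0.079%, interval 0.002 to 0.439), with 0.304% of the members, against 6.63% of the eligible sequence. Its summit had 302.7 and lay wholly in lower-case sequence. None of 79 cytosolic ribosomal protein genes was nearest, where the interval reaches 4.56% and the sequence share is 0.25%. Of 143 collagen genes there was 1 (col-88, 274.1), with 0.304% of the members against 0.682% of the sequence. Of 29 body-wall muscle genes there was 1 (unc-60, 250.8), with 0.304% of the members against 0.214% of the sequence. Of 55 histone genes there was 1 (hil-7, a linker histone gene, 488.7), with 0.304% of the members against 0.142% of the sequence. Of 107 neuropeptide and insulin genes there were 3 (nlp-40 at 292.1, ins-13 at 285.7 and ins-19 at 213.8), with 0.912% of the members against 1.30% of the sequence. Of 130 ion channel and receptor genes there were 2, with 0.608% of the members against 1.14% of the sequence. Those 2 were lgc-26, with 334.0 and no region within 100 bp in replicate 2, and slo-1, with 232.4.

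The members closest to a promoter window lay 18 bp outside that of lrk-1, with 255.4, and 22 bp outside that of chd-7, with 474.4, and the nearest peaks left out lay in the windows of dhs-8, with 718.5, and ech-2, with 247.3. The members closest to a small RNA gene were 206 bp from sls-2.2, with 285.7, and 246 bp from mir-42, with 311.5, and the closest peaks left out lay 195 bp from mir-80, with 232.1, 108 bp from mir-53, with 486.4, and 85 bp from mir-51, with 1970, which is above every member. The weakest member had a signal of 212.2, and the strongest region of this kind below the authors' threshold had 211.7.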

How the data were processed

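Per the labels, chromatin was immunoprecipitated with an anti-GFP antibody from 2 biological replicates of 1 group. The deposited ce11 narrowPeak lists comprise 30000 regions for each replicate and for the pool, and 1925 optimal pooled peaks. Their signal is the authors' peak score. Per the deposited file descriptions a control alignment was used, and neither the peak caller nor the aligner or threshold is given in the sources used here. Depth is unknown, and intervals cover counting error only.

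Summits were classified with the Ensembl 115 WBcel235 annotation, in the order small RNA gene, X, promoter window, gene body, distal. Flanks of the summit window's length were centred 350 bp from the summit, on the lower-coordinate side for even summit positions. Classes were compared with Fisher's exact test, summits and flanks with exact sign and McNemar tests, all two-sided with Benjamini-Hochberg adjustment at 0.05. Named members were the 15 strongest, the 5 farthest from a 5′ end, those with CAATTAA, those in the 5 most populated gaps and the 20 strongest at listed genes, and others were named after their values were seen. The members, motifs and lists were chosen with earlier results of these data known. Of the listed symbols, enu-3 and tni-2 matched no gene. The code was tested on simulated data. Alternatives were each replicate's list, a stricter list of the peaks above the median signal, and other windows, distances and flanks. Python 3.11.15, numpy 2.4.6, scipy 1.17.1 and matplotlib 3.10.9 were used.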

Additional observations from a re-analysis of the deposited data

How the results depend on the processing

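Of 263 alternative values, 214 counted as the same. For tests that meant the same direction and side of the threshold. For counts it meant a value near that reported, and for shares one inside the reported interval. With a 2000 bp promoter window there were 208 members, and with the stricter list, the peaks above the median signal, 135. Words higher and lower at summits then numbered 108 and 95, and 83 and 84; they were 69 and 82 with 25 bp either side of the summit, and 344 were higher with 100 bp. Of the 18 motif comparisons with other classes, those called numbered 5 as reported, 1 with the 2000 bp window, 3 in the stricter list, 2 at 25 bp and 2 to 3 with a replicate left out. In the panel, 1 motif was higher with the 2000 bp window.

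The difference from promoter peaks in the share found in both replicates lost its call with the 2000 bp window (-6.72 points), the stricter list (-4.28), 250 bp (-5.69), any overlap (-6.01) and all regions (-2.86). That from intron peaks turned to -0.853 at 50 bp. For signal above the median, the difference from promoters was -5.94 with the 2000 bp window, -8.17 without noncoding genes and -12.7 to -6.93 with a replicate left out, and that from introns was -4.37 in the stricter list. The difference in summits richer in G and C than the flank was, from promoters, 3.39 with the opposite flank, 2.63 at 25 bp and 3.94 to 4.67 with a replicate left out, and from introns 4.4 with the opposite flank and 4.75 to 6.35. The TAATTA ratio was 0.833 to 1 with a replicate left out. The cause of these changes was not tested. The 2000 bp window and the stricter list also left fewer members. No paired analysis was possible because there was 1 group. Peak lists without read counts limit what depth can show.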

Other observations

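Of the members, 34 (10.3%) had at least 50% of their summit window in the lower case that marks repeats in the RefSeq sequence. On average 19.1% of a member's summit bases were so marked, against 20.2% at promoter summits and 41.3% of the eligible autosomal sequence.

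GTTCGANNC, which matches the internal B box of tRNA genes and was chosen after the peaks were seen, was sought on both strands because small RNA genes hold many of the peaks in the full list. It lay at none of the 329 member summits, where the exact binomial interval reaches 1.11%, and in 2 of their flanks. It lay at 35.6% of the 289 summits near small RNA genes, at 6 of 632 promoter summits (0.949%) and in 0.749% of eligible windows. The rule leaves summits near tRNA genes out of the members, so the contrast with the 35.6% was largely set in advance. No conclusion is drawn from that contrast. The share of eligible windows, to which the same rule applies, lay inside the interval for members.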
